A study of Mus musculus with 2 samples.

Results

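The heat shock and DnaJ chaperone genes of the mouse were taken from the GENCODE vM21 annotation as the protein-coding genes whose symbols begin with Hspa, Hspb, Hspd, Hspe, Hsph, Hsp90, Hsf, Dnaja, Dnajb or Dnajc. This gave 81 of 21802 genes, and their promoters were read in DNase-seq data from adrenal gland. The assay finds accessible chromatin from the cuts that DNase I makes in nuclei, and a footprint is a short stretch within open chromatin that is cut less than its flanks. The 2 libraries, replicates 1 and 2, formed a single group of whole adrenal gland tissue from adult male B6CASTF1/J mice aged 18 to 20 months, an F1 hybrid strain, with no treatment named in the labels. Each library has its own tissue sample entry but both name 1 donor entry, so separate animals are not stated, and the spread between libraries may be technical. The symbol rule also took in Hspbp1, Hspbap1 and Hsf2bp, which encode partners of heat shock proteins or of HSF2 and belong to none of the families by sequence.

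Heat shock proteins bind unfolded or aggregating proteins and help them fold. The HSP70 family (Hspa genes) works with J-domain proteins (Dnaja, Dnajb and Dnajc genes), which deliver clients and stimulate its ATPase, and with exchange factors such as HSP110 (Hsph1), while HSP90 finishes the folding of kinases and steroid receptors, the glucocorticoid receptor among them. HSF1, the main transcription factor of the heat shock response, binds as a trimer to the heat shock element, inverted repeats of the letters GAA, and the unfolded protein response of the endoplasmic reticulum (ER) acts through a different DNA site, the ER stress element.

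Peaks and footprints were called by the authors in each library separately. Replicate 1 listed 98630 peaks and 228557 footprints and replicate 2 listed 118249 and 273271. The median peak height, a signal in the authors' units, was 0.717 in replicate 1 and 0.750 in replicate 2. Marker promoters of the gland were partly open: 5 of 7 cortex genes had a peak in both libraries, at heights of 1.37 to 6.16, with none listed for Hsd3b1 and Mc2r, and so had 3 of 6 chromaffin genes, with none listed for Th and Pnmt. Other markers open in both libraries were 3 of 4 endothelial, 2 of 4 macrophage, 3 of 4 adipocyte, 2 of 4 testis germ cell and 0 of 3 hepatocyte genes. In whole tissue, fewer cells of a type and less accessibility per cell cannot be told apart.

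Most chaperone promoters were open. A gene was called open if a region holding a peak of each library was found at most 1 kb from the start of any of its protein-coding transcripts. Of the 81 genes, 73 (90.1%) were open, beside 64.5% of all protein-coding genes (14066 of 21802). The median height of the open members, taken as the mean of both libraries at the tallest such region, was 4.97, beside 3.90 over all open genes, and 52 of the 73 stood above 3.90. Heights ran from 0.624 at Hspb3 to 11.0 at Dnajb4. A height above 10 was found at 6 of the 73 members (8.22%) and at 1.71% of all open genes. Among these 6, Hspd1 and Hspe1 share 1 region, and the region of Dnajb4 is also near a start of Fubp1. Genes that share a region were each counted, among all open genes as well.

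**Figure D1:**
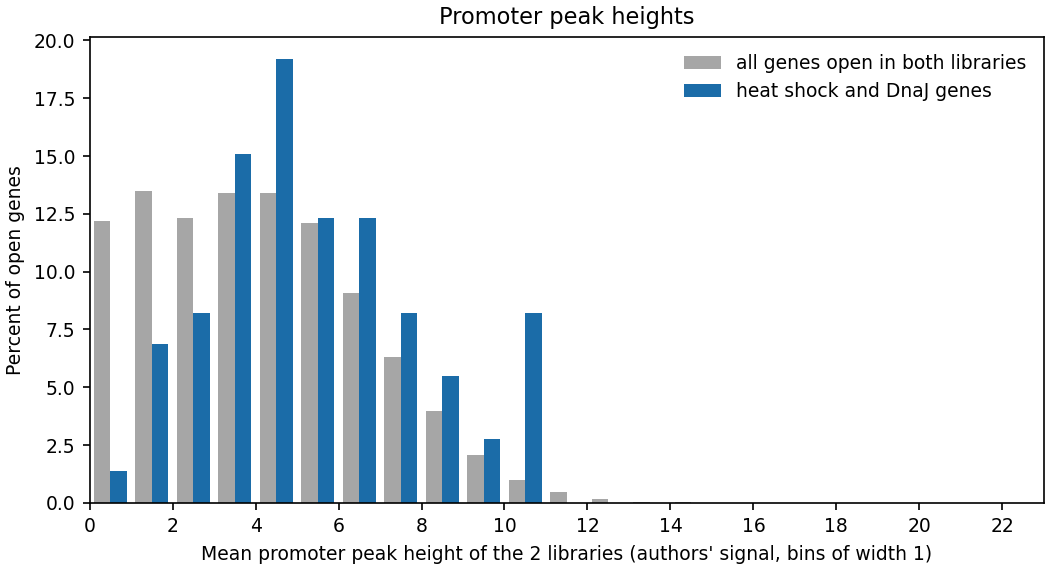
Percent of open genes (vertical axis) by mean promoter peak height of the 2 libraries in bins of width 1 (horizontal axis, authors' signal), for 73 heat shock and DnaJ genes and all 14066 open genes. The bin from 10 to 11 held 8.22% of the chaperone genes and 0.995% of all open genes. Genes that share a region, such as Hspd1 and Hspe1, were each counted.

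Promoters of these genes were also rich in CpG, a property that moved with openness over all genes. In the 300 bp window from 250 bp before to 50 bp after the gene's 5' end, the median ratio of observed to expected CpG was 0.750 for the members and 0.524 for all genes. Among genes with a ratio of 0.75 or more, 40 of 41 members (97.6%) and 96.6% of all genes were open. Between 0.5 and 0.75, 17 of 18 members and 88.4% of all genes were open. Between 0.25 and 0.5, the counts were 9 of 13 members (69.2%) and 54.2% of all genes, and below 0.25 they were 7 of 9 members (77.8%) and 20.4% of all genes. Median heights of open members were 6.01 in the highest of these classes and 4.18 in the next, beside 4.96 and 3.53 over all open genes. Between 0.25 and 0.5 they were 3.84 beside 2.09, and below 0.25 they were 4 beside 1.79. In the share open, the members stood near all genes of like CpG content in the highest class and above them in the CpG-poor classes. The CpG ratio was read at the 5' end, while openness counted any start. At all 7 open members below 0.25 the tallest region lay outside the 300 bp window. These were Hsp90aa1, Dnaja4, Dnajc15, Dnajc5b, Dnajc22, Dnajc25 and Hspb2. Below 0.25, the share open and the heights of the members are thus not those of the CpG-poor sequence itself. Among open members from 0.25 to 0.5, the tallest region overlapped the window at Hspa12b, Hspb6 and Hspb8 and lay outside it at the others. Over all genes this was not counted.

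The transcription factors of the response had moderate or no promoter peaks. Of 7 genes with Hsf symbols, Hsf2bp among them, 4 (57.1%) were open, near the 64.5% of all genes. Hsf1, the master regulator of the heat shock response, had a height of 5.42 in replicate 1 and 4.36 in replicate 2 (4.89 ± 0.748, SD, n = 2) at chromosome 15, 76477201 to 76477500. This region also lay within 1 kb of a start of Bop1, a ribosome biogenesis gene. Hsf2, which acts in development and together with HSF1, had 5.64 and 4.81 (5.23 ± 0.583), and Hsf4, the factor of the eye lens, had 2.65 and 2.53 (2.59 ± 0.0863). Hsf1 and Hsf2 overlapped in height and both stood above Hsf4 in each library. Hsf2bp, a partner of HSF2 with a role in meiosis, stood at 2.30 ± 0.429 in a region it shares with Rrp1b.

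Hsf3, Hsf5 and Hsfy2 were not open in both libraries. Hsf3 had a peak of height 0.307 in replicate 2 and none listed in replicate 1. Hsf5 and Hsfy2, genes of the male germ line, had no peak listed within 1 kb in either library. The nearest peaks to the 5' end of Hsf5 were at a distance of 12806 bp in replicate 1 and 7604 bp in replicate 2, and its CpG ratio of 0.851 was at percentile 80.2 of all genes. For Hsfy2 they lay 258520 and 42581 bp away.

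Exact heat shock elements stood at promoters of cytosolic and mitochondrial chaperones. The element was searched as GAANNTTCNNGAA on both strands, with N for any base, in 300 bp centred on each gene's tallest shared region. It was found at 7 of the 73 open members (9.59%), in 6 distinct regions: Hspa8, Hsp90aa1, Hspd1, Hspe1, Hsph1, Dnaja1 and Dnajb6. Over all 14066 open genes it was found at 40 (0.284%). The 33 other genes include 4 from the lists of related genes compared below, which hold 25, 13, 15 and 7 genes. These are Stip1, which links HSP70 to HSP90, Chordc1, an HSP90 partner, Cct4, a subunit of the cytosolic chaperonin, and Serpinh1, the collagen chaperone. Gm5129 is also among the 33 and shares the region and element of Dnajb6. Others were genes of unlike roles, such as the histone gene Hist1h2ac and the ribosomal protein gene Rps18. This window was chosen after the data were seen, because the annotated 5' end of several members lies away from the open region. In the window at the 5' end the element was found at 1 of 81 members, Hspe1, beside 0.472% of all genes.

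The sequences are shown because the element is the binding site that the heat shock response uses. They are from the GRCm38 reference, 5' to 3' on the gene's strand, with the matched element in capitals. A match is called under a footprint here if they overlap by at least 1 bp. Footprints of both libraries overlapped the element in the first 3 lines, fully in both only at Hsp90aa1. Those of neither library did so in the Hspa8 and Dnajb6 lines, and only that of replicate 2 in the Dnaja1 line. The positions are chr1:55088053-55088082 (plus strand) for Hspe1, chr12:110696379-110696407 (minus) for Hsp90aa1, chr5:149636280-149636308 (minus) for Hsph1, chr9:40801055-40801083 (plus) for Hspa8, chr4:40722526-40722554 (plus) for Dnaja1 and chr5:29735844-29735872 (plus) for Dnajb6.
Hspe1: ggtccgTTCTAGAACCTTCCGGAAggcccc
Hsp90aa1: gagggttcTTCCGGAAGGTTCcggaggct
Hsph1: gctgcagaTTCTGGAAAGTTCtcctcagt
Hspa8: gcgagcgtGAAAGTTCCAGAAcgccgcgg
Dnaja1: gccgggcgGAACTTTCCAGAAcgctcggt
Dnajb6: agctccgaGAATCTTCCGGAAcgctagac

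At Hspe1 and Hspd1 there were 2 overlapping matches on opposite strands, which together span 55088059 to 55088076 on chromosome 1. Hspd1 and Hspe1 encode the mitochondrial chaperonin HSP60 and its lid HSP10, and they are transcribed in opposite directions from starts 108 bp apart. Their element lay between these starts, in a noncoding exon part of another Hspd1 transcript. The replicate 1 footprint from 55088054 to 55088077 covered the whole of it, and the replicate 2 footprint from 55088052 to 55088070 covered most of it. At Hsp90aa1 a footprint covered all 13 bases in both libraries, 110696368 to 110696404 in replicate 1 and 110696367 to 110696405 in replicate 2, over an annotated start of the gene. At Hsph1 footprints covered 7 and 8 of the 13 bases. At Hspa8 and Dnaja1 the element lay downstream of the start, in the noncoding part of the exon, 85 and 60 bp from the start to the element's centre.

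Under footprints of both libraries the element was found at 4 members (5.48%) and at 16 open genes in all (0.114%). The ETS consensus CCGGAAG overlaps the element at Hsp90aa1, Hspd1 and Hspe1, and also at Dnajb6, where neither library listed a footprint over it. A footprint does not name the protein that made it. The labels name no heat treatment for either library.

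**Figure D2:**
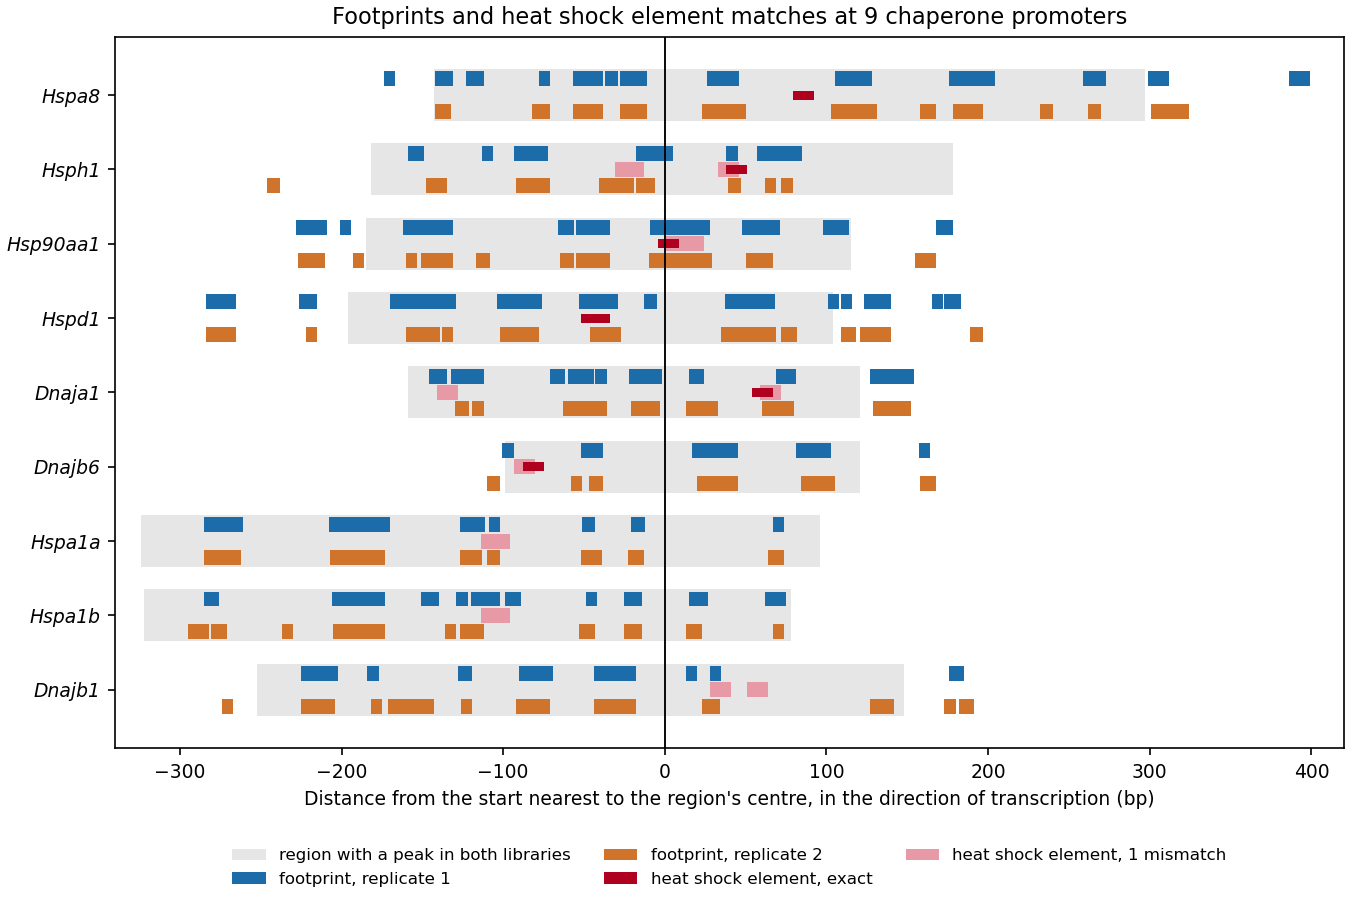
Footprints of replicate 1 (blue) and replicate 2 (orange) and heat shock element matches (red, exact; pink, 1 mismatch) at 9 chaperone promoters, as distance in bp from the start nearest to the region's centre; grey bars are regions with a peak in both libraries. The exact element overlaps footprints of both libraries at Hsp90aa1, Hspd1 and Hsph1 and lies between footprints at Hspa8.

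With 1 mismatch allowed in the 9 fixed letters, 14 of the 73 members (19.2%) and 4.09% of all open genes held a match in the same window. Under footprints of both libraries there were 12 members and 141 open genes in all (1.00%). Beyond the genes with an exact match these were Hspa1a and Hspa1b, the stress-inducible HSP70 genes, with Hspa1l in the region of Hspa1a, Hspa4l, the small heat shock gene Hspb1, Dnajb1 and Dnaja4. Sequences of 4 of them are shown for comparison with the exact elements, with the capitals marking the matches that allow 1 mismatch. They lie at chr17:34972233-34972290 (minus strand) for Hspa1a, chr17:34959320-34959372 (minus) for Hspa1b, chr5:135887782-135887834 (plus) for Hspb1 and chr9:54699439-54699496 (plus) for Dnaja4, the first 3 outside annotated genes and the last in an intron of Dnaja4 upstream of one of its starts.
Hspa1a: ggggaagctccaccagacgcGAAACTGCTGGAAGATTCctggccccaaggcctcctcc
Hspa1b: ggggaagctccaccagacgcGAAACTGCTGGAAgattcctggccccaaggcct
Hspb1: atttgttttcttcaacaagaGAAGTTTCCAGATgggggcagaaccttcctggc
Dnaja4: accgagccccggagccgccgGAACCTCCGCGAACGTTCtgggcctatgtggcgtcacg

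The 300 bp windows at the 5' ends of Hspa1a and Hspa1b were 98.7% identical, with 4 edits between them. Reads from such copies can map to either gene, and how the authors placed them is not given in the sources used here, so values at these 2 genes are uncertain. Hspa1b capitals stop earlier than those of Hspa1a because only matches touched by a footprint in both libraries are marked.

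The ER stress element was found at some genes of ER chaperones. Searched as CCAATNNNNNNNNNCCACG on both strands in the same window, it lay at 3 of 73 open members (4.11%), namely Hspa5, Hsp90b1 and Dnajc3, and at 0.121% of all open genes. All 3 had a match under footprints of both libraries, as had 10 open genes in all (0.0711%). Other ER genes among the open members, such as Dnajb9, Dnajb11 and Dnajc10, held no exact match in this window. Hspa5 encodes BiP, the HSP70 of the ER lumen, Hsp90b1 encodes the ER form of HSP90, and Dnajc3 encodes a J-domain protein of the ER lumen that the unfolded protein response induces. The element holds the NFY consensus CCAAT, so each such gene is also counted for NFY below. The sequences on the gene's strand are at chr2:34772020-34772048 (plus) for Hspa5, chr10:86705618-86705676 (minus) for Hsp90b1 and chr14:118937807-118937865 (plus) for Dnajc3, with the element in capitals.
Hspa5: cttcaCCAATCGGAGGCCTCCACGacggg
Hsp90b1: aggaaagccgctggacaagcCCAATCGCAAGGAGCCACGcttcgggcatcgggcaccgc
Dnajc3: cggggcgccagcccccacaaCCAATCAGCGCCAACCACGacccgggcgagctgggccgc

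The centre of the element lay 61 bp upstream of the nearest start at Hspa5, 138 bp upstream at Hsp90b1 and 140 bp upstream at Dnajc3. That start of Hspa5 is not the gene's 5' end. The element lay downstream of the Hspa5 5' end, in a noncoding exon part of the gene. At Hspa5 the replicate 1 footprint covered 16 of the 19 bases and the replicate 2 footprint covered 17. At Dnajc3 they covered 13 and 14, and at Hsp90b1 they covered 9 in both. Hsp90b1 held another exact match 33 bp upstream of its start, covered by a footprint only in replicate 2. The site TGACGTGG of the related factors XBP1 and ATF6 lay under footprints of both libraries at Dnajc10 and Dnajc11. DNAJC10 is an ER disulfide reductase with a J domain, and DNAJC11 is a mitochondrial protein. At Dnajc25 the site lay under a footprint only in replicate 2. These 3 members are 4.11% of those open, beside 0.981% of all open genes with the site, and the shares under footprints of both libraries were 2.74% and 0.291%.

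Among 11 motifs searched, the common promoter motifs differed less between the members and all open genes. NFY (CCAAT) was found at 29 of 73 members (39.7%) and 35.6% of all open genes, and under footprints of both libraries at 14 members (19.2%) and 11.7% of all. The SP/KLF motif GGGCGG was found at 76.7% and 71.3%, and under footprints of both at 53.4% and 45.0%. ETS (CCGGAAG) stood at 23.3% and 18.1%, and YY1 (AAGATGGCG) at 5.48% and 3.73%. NRF1 (GCGCATGC) was found at 1 member, Dnajc3 (1.37%), beside 5.67% of all, the TATA box (TATAAA) at Dnajc28 and Hspb3 (2.74% beside 3.71%), and the ATF4/CHOP site TGATGNAA at Hspa14 (1.37% beside 1.52%). A match is a run of letters and no test was made of these shares.

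The cAMP response element TGACGTCA is the site of a pathway through which ACTH acts in the adrenal cortex. It was found at 3 members, Hsp90ab1, Dnajc27 and Dnajc30 (4.11%), beside 3.72% of all open genes. It lay under footprints of both libraries at all 3, and at 482 of the 523 open genes that held it (3.43% of all). In both shares the members stood near all open genes. At Hsp90ab1 the element lay 119 bp upstream of the start, at chr17:45573367-45573414 (minus strand).
Hsp90ab1: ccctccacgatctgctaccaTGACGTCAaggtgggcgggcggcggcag

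**Figure D3:**
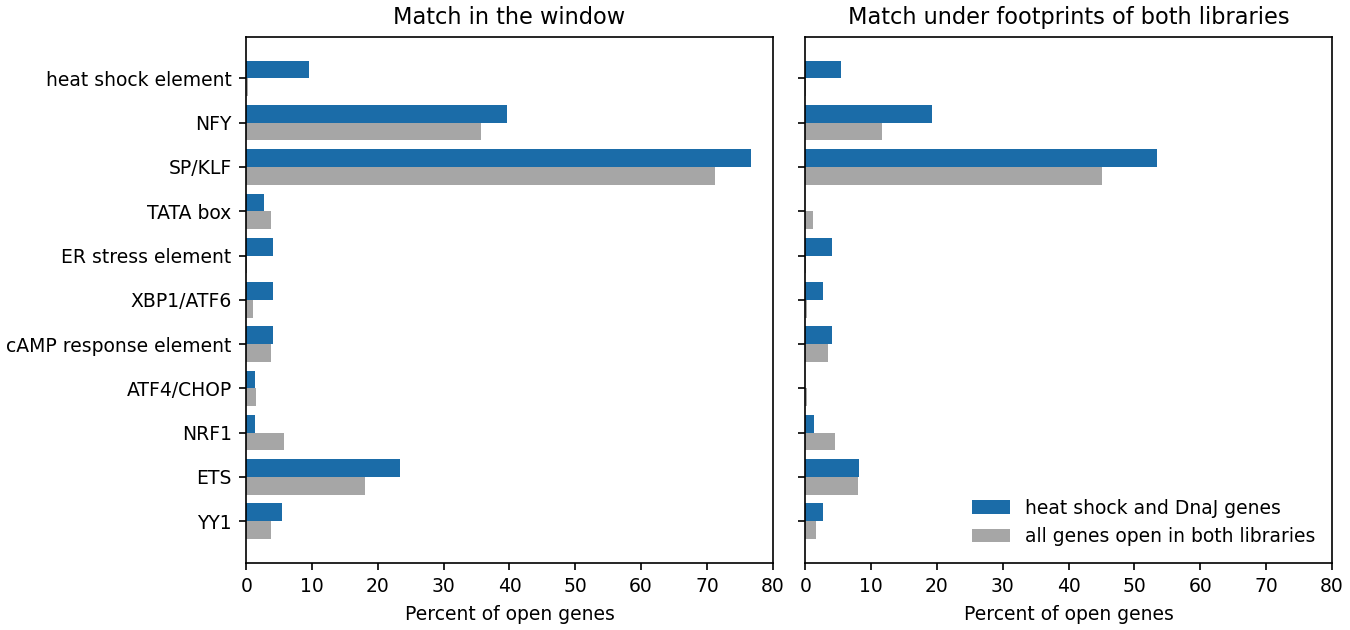
Percent of open genes with each of 11 motifs in 300 bp centred on the shared region (left) and with a match under footprints of both libraries (right), for 73 heat shock and DnaJ genes (blue) and all 14066 open genes (grey). The heat shock element stands at 9.59% and 0.284% on the left, and SP/KLF at 76.7% and 71.3%.

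All 13 HSP70 genes were open, beside 64.5% of all genes. Hspa8, the constitutive HSP70 of the cytosol, had the highest peak of the family, 11.1 in replicate 1 and 9.96 in replicate 2 (10.5 ± 0.830), rank 162 of all open genes, at chromosome 9, 40800841 to 40801280. Hspa5 had 6.65 and 7.22 (6.93 ± 0.406) at chromosome 2, 34771761 to 34772060. Hspa9, the HSP70 of the mitochondrial matrix, had 4.56 and 5.35 (4.96 ± 0.561). These 3 genes kept this order in both libraries, with no overlap between them.

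The stress-inducible copies were listed with lower mean heights, though in replicate 1 Hspa1b (4.59) stood just above Hspa9 (4.56). Their order against Hspa8, Hspa5 and Hspa9 is uncertain, because reads can map to either of the near-identical copies. Hspa1a had 3.62 and 3.34 (3.48 ± 0.197) and Hspa1b had 4.59 and 3.89 (4.24 ± 0.495), on chromosome 17 at 34972061 to 34972480 and 34959161 to 34959560. The medians of all open genes were 3.92 in replicate 1 and 3.83 in replicate 2, with Hspa1a below and Hspa1b above in each, and the copies share sequence as described above. Hspa1l, a testis gene beside Hspa1a, counted the region of Hspa1a, whose centre lay 432 bp upstream of its start.

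Other members of the family ranged widely. Hspa2, best known from male germ cells, had 8.63 and 8.53 (8.58 ± 0.0697) in a region 540 bp wide, and the most footprints shared by both libraries of any member, 14. The exchange factors Hspa4 (8.82 and 8.80) and Hspa4l (6.16 and 5.23) stood above the median of all open genes, as did Hspa13, a microsomal ATPase (5.35 and 6.67). Hspa14, which acts at the ribosome, had 3.50 and 4.47, in a region near starts of Cdnf and the readthrough gene Gm45902 as well. Hspa12a had 4.16 and 4.33. Hspa12b, a gene of endothelial cells, was the lowest of the family at 1.48 and 1.02 (1.25 ± 0.326) and had no shared footprint. Its level lay within the heights of the endothelial markers, 0.729 to 1.94, and also within those of the adipocyte markers, 0.568 to 2.61. Hsph1, the HSP110 exchange factor, had 5.52 and 6.34 (5.93 ± 0.582).

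The cytosolic HSP90 genes and the mitochondrial chaperonin had among the tallest member peaks. Hsp90ab1, the constitutive HSP90, had 9.80 in replicate 1 and 10.4 in replicate 2 (10.1 ± 0.404), at chromosome 17, 45573201 to 45573440. Hsp90aa1, the inducible form, had 11.1 and 8.94 (10.0 ± 1.51), at chromosome 12, 110696281 to 110696580. Hspd1 and Hspe1 shared a peak of 10.9 and 9.68 (10.3 ± 0.854) at chromosome 1, 55087921 to 55088220. These values overlapped across the libraries, so their order is within the spread. The tall Hsp90aa1 region was not the one nearest to the annotated 5' end of the gene, which had a height of 5.39. Hsp90b1 had 5.61 and 5.22 (5.42 ± 0.277), below the cytosolic forms in both libraries, in a region also near a start of Ttc41.

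Small heat shock proteins hold unfolded proteins without ATP. Among the 10 genes with Hspb symbols, which also cover genes of other families, 9 were open, with a median of 4.18. Hspb1, the most widely expressed, had 3.77 and 4.58 (4.18 ± 0.575) at chromosome 5, 135887661 to 135888080. Hspb8, which forms a complex with BAG3 for protein clearance, had 3.04 in both libraries. Hspb6 had 4.05 and 5.62, in a region just inside the annotated 5' end of the gene, 918 bp upstream of its protein-coding start and also near Proser3. Its mean of 4.83 was the highest of these genes, but within the spread of the next ones. Hspbap1, Hspbp1 and Hspb11, which encode a binding partner of HSPB1, an HSP70 exchange factor and a ciliary transport protein, stood at 4.82, 4.68 and 4.49. The region of Hspb9, a testis gene, lay 828 bp downstream of its start, with a height of 3.84 ± 0.158.

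Hspb2, Hspb3 and Hspb7, genes of skeletal and heart muscle, were the lowest. Hspb2 had 0.807 and 1.78 (1.30 ± 0.691) in a region shared with Cryab, the αB-crystallin gene. Hspb3 had 0.573 and 0.675 (0.624 ± 0.0718), the lowest height of all open members. Hspb7 had no peak in replicate 1 and a peak of 0.907 in replicate 2. All these values lay below the median of all open genes in each library.

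**Figure D4:**
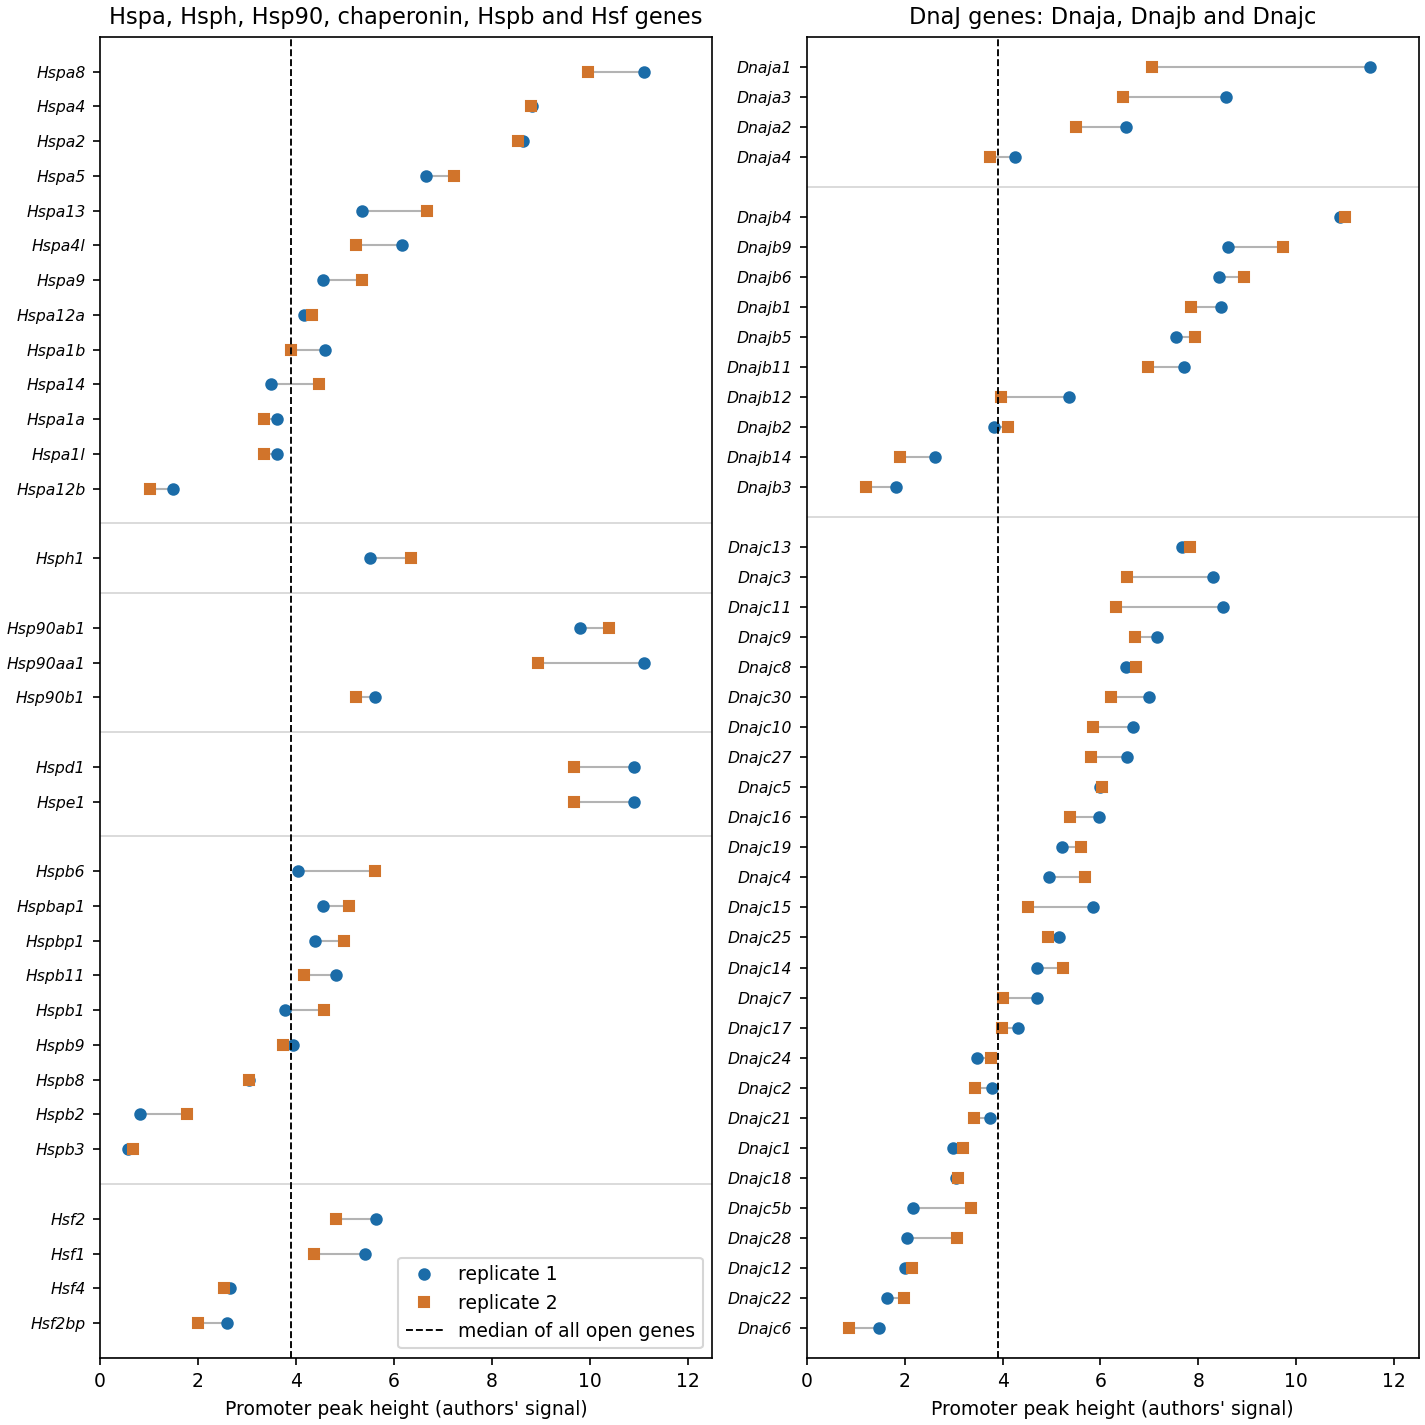
Promoter peak heights (horizontal axis, authors' signal) of the 73 open genes in replicate 1 (circles) and replicate 2 (squares), by class and in order of mean height; the dashed line is the median over all open genes, 3.90. Dnajb4, Hspa8, Hspd1, Hspe1, Hsp90ab1 and Hsp90aa1 stand highest, and Hspb3 stands lowest at 0.624.

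Of the DnaJ genes, all 4 Dnaja, 10 of 13 Dnajb (76.9%) and 27 of 28 Dnajc genes (96.4%) were open, beside 64.5% of all genes. Dnaja1, a cytosolic partner of Hspa8, had 11.5 in replicate 1 and 7.06 in replicate 2 (9.29 ± 3.14), the widest spread of any member on the linear scale. Dnaja3, the mitochondrial form, had 8.57 and 6.46, Dnaja2 had 6.53 and 5.50, and Dnaja4 was the lowest at 4.26 and 3.75. All 4 were higher in replicate 1.

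The tallest member peak was at Dnajb4, a cytosolic co-chaperone, with 10.9 and 11.0 (11.0 ± 0.0721), rank 102 of all open genes, at chromosome 3, 152210281 to 152210520. The region was centred 318 bp upstream of the Dnajb4 start and was also near a start of Fubp1, a splicing and transcription regulator, so it cannot be assigned to Dnajb4 from these data. Dnajb9, an ER protein induced by the unfolded protein response, had 8.60 and 9.73 (9.16 ± 0.800), and Dnajb6, which keeps aggregation-prone proteins soluble, had 8.43 and 8.93. Dnajb1, the classic HSP40 and a heat shock target, had 8.46 and 7.84 (8.15 ± 0.437) at chromosome 8, 83607941 to 83608340. Dnajb5 and Dnajb11, the latter a co-chaperone of BiP in the ER, stood at 7.74 and 7.34. The ER membrane proteins Dnajb12 and Dnajb14 stood at 4.66 and 2.26, Dnajb2, known from neurons, at 3.97, and Dnajb3, a testis gene, was the lowest open one at 1.52 ± 0.429 with no shared footprint.

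Dnajb7, Dnajb8, Dnajb13 and Dnajc5g were listed with no promoter peak by replicate 1 or replicate 2. Dnajb8, Dnajb13 and Dnajc5g are known from testis, where DNAJB13 is part of the sperm tail. Together with Hsf5 and Hsfy2 they make 6 of the 8 members not open in both libraries, the others being Hsf3 and Hspb7. The nearest peak to Dnajb7 lay 8099 bp away in both libraries, of height 10.8 and 8.36, and that to Dnajb13 lay 5801 and 5821 bp away. Being a testis gene did not go with absence in every case, since Hspa2 and Dnajb3 were open, while Hspa1l counted the region of Hspa1a and that of Hspb9 lay past the start as described. None of the 6 had a footprint in either library within 1 kb of a start.

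Dnajc genes encode proteins that share little beyond the J domain. The 3 tallest were Dnajc13, of endosomal sorting (7.66 and 7.82), Dnajc3 (8.30 and 6.54) and Dnajc11 (8.51 and 6.31), all near 7.4 to 7.7 in the mean, with values that overlapped. Dnajc9, a histone chaperone, stood at 6.93, Dnajc8, a splicing protein, at 6.63, Dnajc30, a mitochondrial protein, at 6.60, and Dnajc10 at 6.25. Those of the mitochondrial import motor, Dnajc19 and Dnajc15, stood at 5.41 and 5.18. Dnajc5, the chaperone of secretory and synaptic vesicles, stood at 6.01 ± 0.0431.

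Dnajc27, Dnajc16, Dnajc4, Dnajc25, Dnajc14, Dnajc7 and Dnajc17 lay between 4.15 and 6.17, all above the median of all open genes. Dnajc24, Dnajc2, Dnajc21, Dnajc1, Dnajc18, Dnajc5b, Dnajc28, Dnajc12 and Dnajc22 lay between 1.81 and 3.62, below it. Dnajc12, a co-chaperone of the aromatic amino acid hydroxylases, tyrosine hydroxylase among them, had only 2.01 and 2.16 but 4 shared regions and 10 shared footprints near its starts. Dnajc6, the neuronal auxilin that uncoats clathrin vesicles, was the lowest at 1.48 and 0.870 (1.17 ± 0.429), and it had 6 shared regions near its starts.

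Footprints recurred at most members. Of the 81 genes, 70 (86.4%) had at least 1 footprint shared by both libraries within 1 kb of a start, beside 59.8% of all genes. The open members had a median of 6 shared footprints, beside 4 over all open genes. After Hspa2 with 14 came Hspa8 with 11, and Hsp90aa1, Hsp90ab1, Hspa12a, Dnajb5, Dnajb12 and Dnajc12 had 10 each. The members also had taller peaks than all open genes, and whether footprints were listed more often for that reason was not tested. Open members with no shared footprint were Hspa12b, Hspb3 and Dnajb3, all with heights of 1.52 or less.

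Several promoters were shared with neighbours. The region of 21 of the 73 open members (28.8%) was also within 1 kb of a start of another gene, beside 17.6% of all open genes. The members of such pairs included Hspd1 with Hspe1, Hspa1a with Hspa1l, Hsf1 with Bop1, Dnajb4 with Fubp1, Dnajb11 with Tbccd1, Dnajc7 with Nkiras2, Dnajc2 with Psmc2, and Dnajc30 with Bud23. Peaks at these genes cannot be assigned to 1 of the pair.

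Genes that work with the chaperones were read in the same way, from lists chosen for their function. All 25 co-chaperones and cofactors were open, with a median height of 6.73. The tallest of them were Cdc37l1 (9.74 and 10.5), a relative of the HSP90 kinase adaptor, Stub1, a ubiquitin ligase that acts on chaperone clients (9.73 and 9.46), and Fkbp5, an HSP90 partner of the glucocorticoid receptor (10.4 and 8.76). Bag3, the partner of Hspb8, had 7.84 and 7.23, and Bag2 was the lowest at 2.18 ± 0.342. All 13 genes of the cytosolic chaperonin and prefoldin were open, with a median of 5.03, from 1.49 at Vbp1 to 9.17 at Cct5.

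All 15 genes of the unfolded protein response were open, with a median of 6.07. They included its sensors Ern1 (7.62 and 7.69), Atf6 (6.45 and 6.18) and Eif2ak3 (5.54 and 6.21), and Xbp1, its transcription factor (8.24 and 6.94). Of 7 other stress genes 6 were open, led by Nfe2l2, the regulator of the oxidative stress response (8.94 and 9.81), and Cryaa, a crystallin of the eye lens, had no peak listed. Set beside the 64.5% of all genes that were open, none of these lists had a share below that of all genes, and no test was made of the differences.

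The libraries differed little at these genes. The log2 ratio of the replicate 1 height to the replicate 2 height had a median of 0.08 over the 73 open members and 0.05 over all open genes, and the central 90% of members ran from -0.40 to 0.50, beside -0.53 to 0.55 for all. Replicate 1 was higher at 41 of the 73 (56.2%), beside 56.1% of all open genes. The largest ratios in its favour were 0.76 at Dnajc6, 0.70 at Dnaja1, 0.58 at Dnajb3, 0.54 at Hspa12b and 0.47 at Dnajb14. Replicate 2 was higher by most at Hspb2 (-1.15), Dnajc5b (-0.62), Dnajc28 (-0.58), Hspb6 (-0.47) and Hspa14 (-0.35). Apart from Dnaja1, Hspb6 and Hspa14, these genes had mean heights under 3. With 1 library per replicate, these ratios carry no test.

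**Figure D5:**
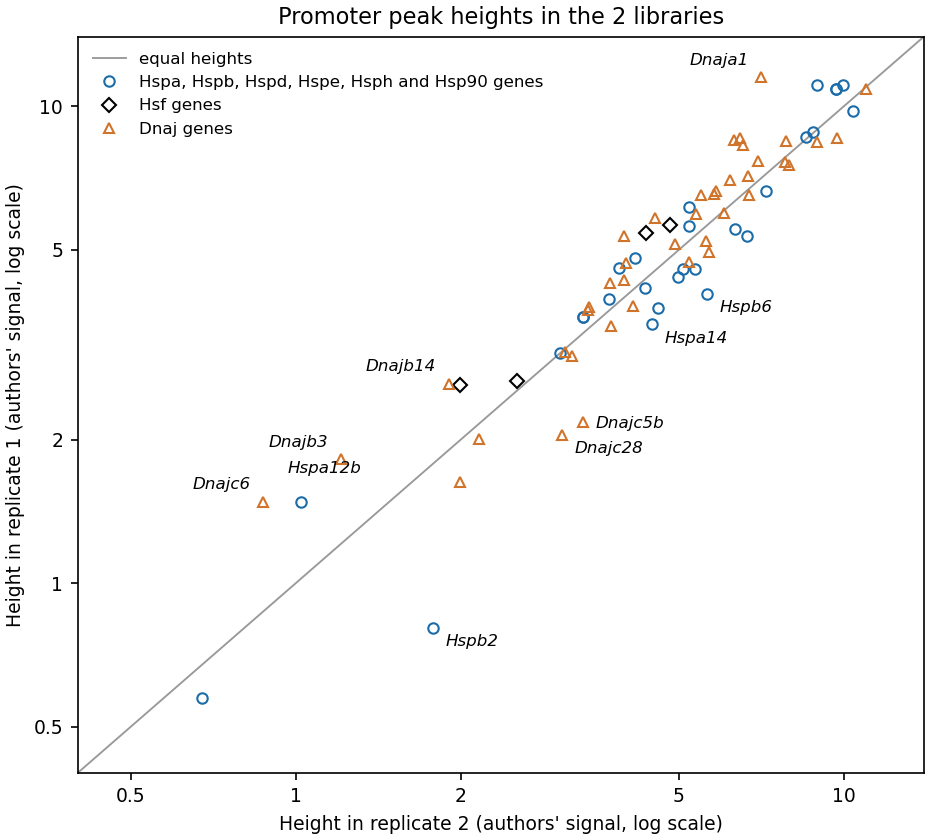
Promoter peak heights of the 73 open genes in replicate 2 (horizontal axis) and replicate 1 (vertical axis), both in the authors' signal on log scales; the line marks equal heights and the 5 genes farthest to each side are named. Hspb2 lies farthest below the line (0.807 and 1.78) and Dnajc6 farthest above it in ratio (1.48 and 0.870).

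Distal regions, with a peak in both libraries and over 1 kb from any start, were counted up to 50 kb from each member's starts. The members had a median of 3, beside 2 over all genes, and 74 of 81 (91.4%) had at least 1, beside 78.1% of all genes. Without replicate 1 the medians were 5 for the members and 5 for all genes, and without replicate 2 they were 4 and 3. Hspb1 had the most with 12, then Dnajb12 with 10, and Hspa8 and Dnajc11 with 9 each. Hspb1, whose promoter peak was near the median of all open genes, thus had 4 times the median number of the members. Dnajb6, Hspa13, Hspa4l, Dnajc15, Dnajc19, Dnajc24 and Hsfy2 had none. A region near several genes counts for each of them, and which gene it serves is not known from these data.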

How the data were processed

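DNase-seq peaks, footprints and false discovery rates were deposited by the authors per library on mm10, per the deposited file index text. The aligner, callers and read depth were not given in the sources used here. The authors' peak height is a signal whose scale is not stated. All heights (100% within 0.05) were whole multiples of a step per library, 0.00531 and 0.00750, so the median peak held 135 and 100 steps. The deposited footprint score was constant and unused. The false discovery rate (q-value) in the authors' deposited files was listed under 0.05.

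Coordinates are 1-based on GRCm38, and 0 intervals lay past a chromosome end. Genes and 54236 starts came from GENCODE vM21 after 54 records with shared symbols were left out, Cct6a and Ddit3 with them. The longer of 2 peak lists was used. Peaks overlapping by at least 1 bp between libraries formed regions, and footprints likewise. Python 3.11.15, pandas 2.3.3 and bedtools 2.31.1 were used, and the functions were tested on simulated data. Named genes were the main chaperones, the tallest and lowest of each class, those not open, and those with the largest library ratios, most footprints or most distal regions. Members and lists were chosen with earlier results of these data known. Alleles of the hybrid were not examined.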

Additional observations from a re-analysis of the deposited data

How the results depend on the processing

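The count of open members, 73, was 70 with 50% reciprocal overlap (Hsf2, Hsf2bp and Hspa5 lost), 71 with the shorter peak list or 5' ends only, 72 with peaks above the median height, and 73 to 75 without 1 replicate. The median member height of 4.97 was 5.04 with the shorter list, 4.96 at the region nearest the 5' end, where Hsp90aa1 fell from 10.0 to 5.39, and 5.08 to 5.15 with 1 library left out. Members with a shared footprint numbered 66 to 74. The heat shock element count depended on the window: 1 member at 5' ends, 11 there with 1 mismatch (6.44% of all genes), 7 in the whole shared region (0.284%), 15 within 1 kb of any start (5.29%), and, added after seeing the data, 7 in 300 bp centred on the region and 14 there with 1 mismatch (4.09%). The median number of distal regions, 3, was 1 within 20 kb and 6 within 100 kb (1 and 5 over all genes), and 4 to 5 without 1 replicate (5 beside 5 over all genes without replicate 1, and 4 beside 3 without replicate 2). The log2 ratio was 0.04 after centring on all genes. No paired analysis was possible because there is 1 group.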
